A study of Mus musculus with 12 samples.

Results

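The genes described here encode the Hedgehog ligands, the proteins that modify and release them, and the co-receptors that capture them at the cell surface. There were 10 of them: Shh, Ihh, Dhh, Hhat, Disp1, Scube2, Boc, Cdon, Gas1 and Lrp2. They were chosen by name, and each was read from the single-locus entry of the deposited count table that carries its symbol. All 10 were found among 20114 single-locus entries, and 8 had enough reads to be tested; Shh and Ihh did not. On mm9 their entries start at chromosome 5, position 28783379 (Shh), chromosome 1, 74991891 (Ihh), chromosome 15, 98723457 (Dhh), chromosome 1, 194336709 (Hhat), chromosome 7, 116942204 (Scube2), chromosome 16, 44485157 (Boc), chromosome 9, 35228708 (Cdon), chromosome 13, 60275765 (Gas1) and chromosome 2, 69262391 (Lrp2).

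The libraries came from mammary epithelial cells of adult female mice, 9 weeks old, of a mixed 129X1/SvJ, C57BL/6, and Swiss Webster background, sorted by flow cytometry. All mice carried mT-mG, a reporter that turns from membrane tdTomato to membrane EGFP after Cre recombination, together with SmoM2, an activated form of the Hedgehog signal transducer Smoothened that Cre switches on. Recombined cells (EGFP, SmoM2 positive) and unrecombined cells (tdTomato, SmoM2 negative) came from mT-mG/SmoM2;MMTV-Cre mice, in which the mouse mammary tumor virus promoter drives Cre, and wild-type cells came from mT-mG/SmoM2;+ mice without Cre. Each group had 4 libraries, 12 in all. No group held EGFP cells without SmoM2, so SmoM2, Cre activity and the sorted color cannot be told apart. The labels do not name the animal behind a library, so p-values measure the spread between these libraries, which may be technical.

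Hedgehog ligands are secreted proteins that carry cholesterol and palmitate. HHAT attaches the palmitate, and DISP1 with the SCUBE proteins releases the finished ligand from the producing cell. On the receiving cell BOC, CDON and GAS1 bind the ligand and present it to the receptor PTCH1, whose inhibition frees Smoothened to activate the GLI transcription factors. SmoM2 acts below the ligand and its co-receptors. In the embryonic neural tube Boc, Cdon and Gas1 are known as genes whose transcripts are low where Hedgehog signaling is high. In the embryonic mammary bud the pathway is known to be kept low.

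Library totals ran from 19581993 to 34779433 counts. Smo itself, which the SmoM2 allele is meant to raise, was measured at 58.1 ± 11.5 CPM (read counts per 1000000 of the TMM-scaled library total, as mean ± SD of 4 libraries) in recombined cells. The means were 30.4 ± 4.41 for unrecombined and 28.3 ± 7.05 for wild-type cells. Its reads cannot be split here between the native gene and the transgene. Transcripts of a salivary gland list summed to 40991 CPM in wild-type library 2, 91483 in unrecombined library 2 and 19288 in recombined library 2. The same list gave 1386 and 1298 CPM in libraries 1 of the unrecombined and recombined groups and at most 85.1 CPM in the other 7. Those 7 are wild-type libraries 1, 3 and 4 and libraries 3 and 4 of the unrecombined and recombined groups. Recombined libraries 3 and 4 had the fewest loci with a read, 14256 and 14601. Calls of the 10 genes that change when these libraries are left out are given with and without them.

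Boc rose and Cdon fell in recombined cells against wild type, and these were the 2 of 8 tested genes past an adjusted p of 0.05. Over all 14039 loci tested the share past that threshold was 6.55%, with 4.17% higher and 2.38% lower. Against unrecombined cells Boc rose, and it was the 1 of 8 past the threshold; the share over all loci was 5.22%, with 3.08% higher and 2.14% lower. Between unrecombined and wild-type cells none of the 8 passed, none had an unadjusted p under 0.05, and 0% of all loci passed by edgeR, with 541 loci at an unadjusted p under 0.05. DESeq2 and limma-voom also called none of the 8 there, though they called 78 and 25 of all loci. The median log2 difference of the 8 genes was 0.92 for recombined minus wild type, 0.58 for recombined minus unrecombined and 0.27 for unrecombined minus wild type, beside -0.02, -0.01 and -0.00 over all loci. In each comparison 5 of the 8 were higher and 3 lower. Both recombined medians lie between the values of Disp1 and Scube2, low genes that were not called. Without recombined library 4 these became 0.55 and -2.18 against wild type, so that median rests in part on 1 library. The members with non-overlapping libraries were Boc and Cdon, 2 of 8, in recombined cells against each of the other groups. The share of all loci without overlap was 12.2% against wild type and 11.3% against unrecombined cells. Between unrecombined and wild-type cells 0 of 8 lacked overlap, beside 4.42% of all loci. The recombined comparisons share their recombined libraries, so their values are not independent of each other.

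**Figure D1:**
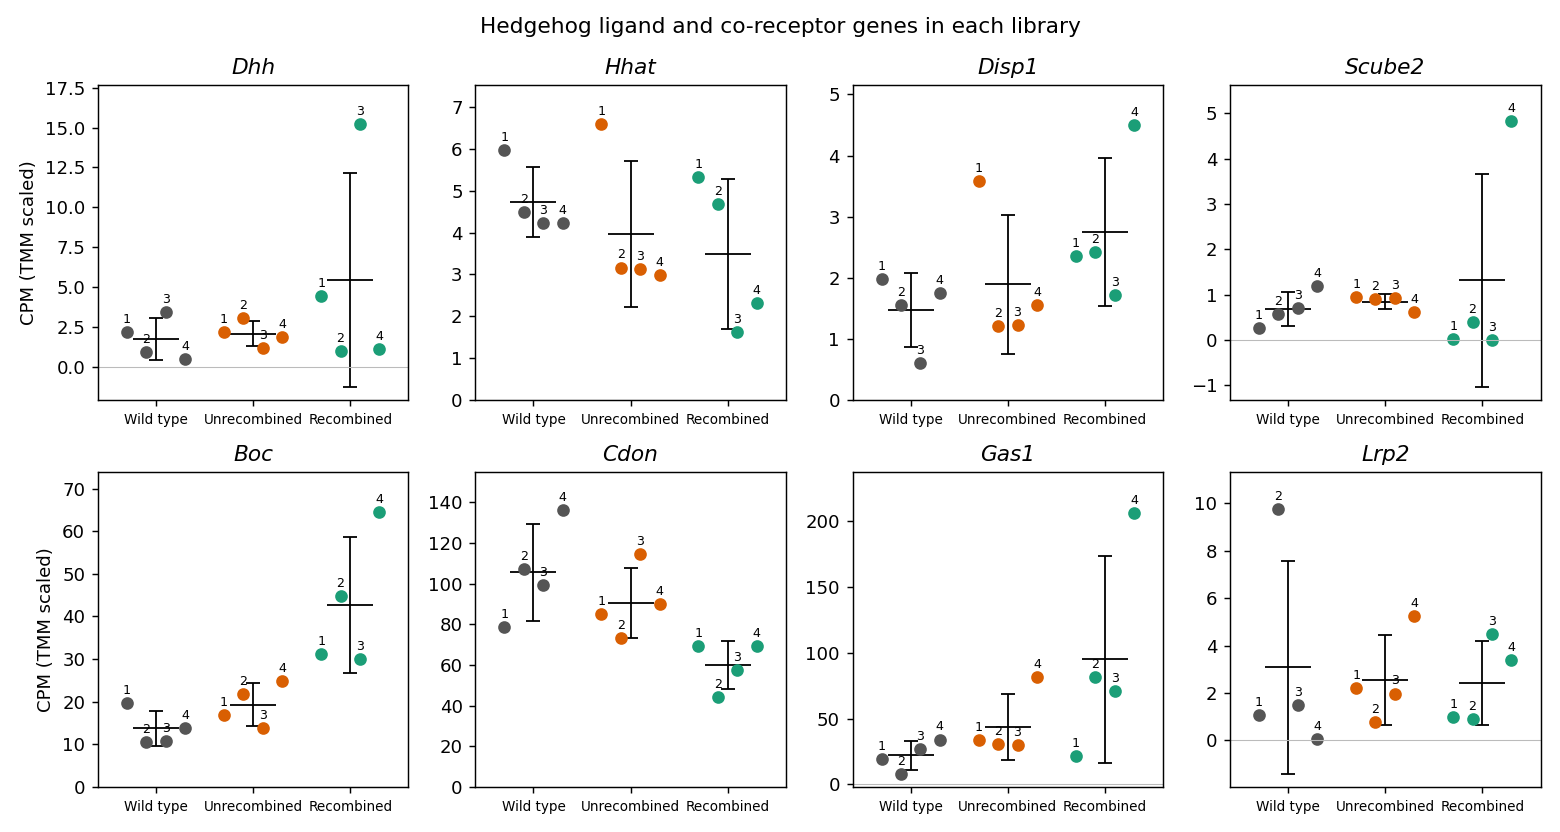
Level of each tested gene in each library, as TMM-scaled CPM (linear axes, each with its own range). Points are libraries numbered by replicate, and bars give the mean ± SD of 4 libraries. Boc in the recombined group lies above, and Cdon below, every library of the other groups, while 1 library sets the highest value of Dhh (15.2) and of Scube2 (4.82).

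**Figure D2:**
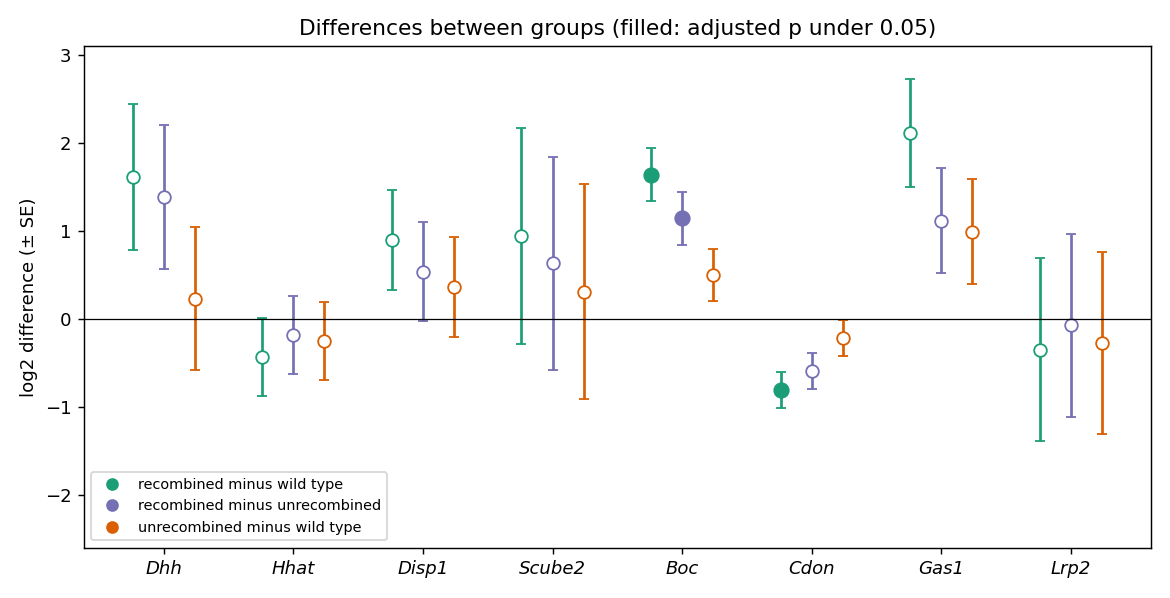
Log2 differences from the fit over all loci, with standard errors, for the 3 comparisons. Filled points have an adjusted p under 0.05: Boc in both recombined comparisons and Cdon against wild type. Bars of Scube2 and Lrp2 span more than 1 log2 unit on each side.

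Among the ligands, Shh and Ihh were near the counting limit in all groups. Shh, the ligand that patterns limb and neural tube, had 3 counts over all 12 libraries: 2 in wild-type library 1 and 1 in recombined library 2. Its entry also carries 9530036O11Rik, a transcript annotated on the opposite strand that shares 446 exon bases with Shh, so even these counts may not be Shh. Ihh, the ligand of cartilage and gut, had 10 counts: 2, 4 and 2 in wild-type libraries 1, 3 and 4, and 2 in recombined library 1. No unrecombined library had a count of either gene. For a library with no count, 3 counts are the level that a count of 0 allows, which corresponds to 0.0896 to 0.162 CPM depending on the library and covers counting error only. Ihh reached at most 0.175 CPM, in wild-type library 3. By exact two-sided permutation tests no difference was called (Ihh against wild type p = 0.143 for each Cre group, Benjamini-Hochberg adjusted 0.429 over the 6 tests made; Shh p = 1). The smallest p that 4 libraries against 4 allow is 0.0286. Only Ihh in recombined cells against wild type, with counts in 4 libraries, could reach that limit. For Ihh in unrecombined cells against wild type, 0.143 was already the smallest value the zeros allowed. Where only 1 library of a comparison held a count, the permutation result was fixed in advance. These tests therefore cannot decide whether the groups differ. A difference in Shh or Ihh was not detectable at this depth.

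Dhh, the ligand of Schwann cells and Sertoli cells, was the ligand with reads in every library. It stood at 2.21, 0.97, 3.45 and 0.50 CPM in the wild-type libraries 1 to 4. The unrecombined libraries gave 2.17, 3.09, 1.22 and 1.87 CPM. The recombined libraries gave 4.45, 1.03, 15.2 and 1.15 CPM. The groups overlapped, and a single library, recombined 3, stood far above the other 11. The difference between recombined and wild type was 1.61 ± 0.825 on the log2 scale (SE; edgeR, adjusted p = 0.294), 0.30 without recombined library 3 and 0.61 without recombined 3 and 4 together. Recombined minus unrecombined was 1.38 ± 0.819 (adjusted p = 0.406), with 2 of the 4 same-numbered pairs higher; it was 0.089 without recombined library 3 and 0.39 without recombined 3 and 4 together. In the GRCm38 annotation Dhh shares 546 exon bases with Rhebl1 on its own strand and 1107 with the antisense transcript Gm49442; whether the counting used strand is not given in the sources used here, so part of these reads may belong to those genes. Markers of Schwann cells and glia, a cell type known to express Dhh, summed to 45.7 to 76.1 CPM in wild-type, 38.3 to 63.7 in unrecombined and 47.7 to 64.4 in recombined libraries, 56.9 in recombined library 3. Most of each sum was Mbp, except in recombined library 4, where Ngfr stood at 50.1 and Mbp at 11 CPM. Cdh19 stood at 0 to 0.149 CPM in recombined, 0.781 to 3.13 in unrecombined and 0.0387 to 1.57 in wild-type libraries. In recombined library 3, S100b and Sox2 had 0 CPM and Ngfr 5.44. Of the 5 list genes tested, 1 rose against wild type and 1 fell against unrecombined cells, beside 4.17% and 2.14% of all loci. The lineage factor Foxd3 was at 0 in all libraries but unrecombined 4. The part of Schwann cells and glia in the Dhh values was not tested.

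The 250 bases before the start of Dhh and of Gas1 are shown because Dhh was the ligand that was detected and Gas1 the well-detected co-receptor with the widest range, and the windows show what their promoters share with the sequence bound by GLI factors. Both come from RefSeq (GRCm38.p6), read 5′ to 3′ on the strand of the gene, which is the minus strand: chr15:98898541-98898790 for Dhh and chr13:60177536-60177785 for Gas1. Capitals mark CCACCC, the core of the GLI recognition sequence, searched on both strands.
Dhh: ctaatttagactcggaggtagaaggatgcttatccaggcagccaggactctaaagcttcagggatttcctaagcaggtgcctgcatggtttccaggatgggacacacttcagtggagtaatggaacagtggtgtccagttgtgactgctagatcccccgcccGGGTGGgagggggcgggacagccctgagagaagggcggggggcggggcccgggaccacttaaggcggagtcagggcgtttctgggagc
Gas1: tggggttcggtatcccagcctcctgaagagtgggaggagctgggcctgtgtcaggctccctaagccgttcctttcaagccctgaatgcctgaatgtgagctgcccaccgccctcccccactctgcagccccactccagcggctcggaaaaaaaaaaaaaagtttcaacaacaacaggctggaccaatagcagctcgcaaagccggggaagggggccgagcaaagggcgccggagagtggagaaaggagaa
Dhh held 1 match, on the opposite strand and 88 bases before the start, and Gas1 held 0. Windows were at hand for 8 of the 10 genes, without Boc and Shh. Among the other windows, that of Ihh held 2 matches of the core and that of Lrp2 held 1. Those of Hhat, Disp1, Scube2 and Cdon held 0. Over 32851 promoter windows of the same length 28.1% held the core, so a match is common. GGGCGG, the GC box bound by Sp factors, was present 4 times in the Dhh window and 1 time in that of Gas1, and 32.7% of all windows held it. The noncoding gene Gm48488 on the other strand shares exon bases with Gas1, and whether it reaches into the Gas1 window is not given here. A match of these letters is a description and shows no binding.

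The acyltransferase gene Hhat was detected in all libraries and did not pass the test in any comparison. Its levels were 5.96, 4.49, 4.23 and 4.23 CPM in wild type and 6.59, 3.17, 3.13 and 2.99 CPM in unrecombined cells. The recombined libraries gave 5.32, 4.69, 1.62 and 2.31 CPM, so the 2 lowest values of Hhat were those of recombined libraries 3 and 4. The log2 difference of recombined minus wild type was -0.44 ± 0.445 (adjusted p = 0.637) and became 0.07 without those libraries.

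Disp1, which encodes the transporter that exports the lipid-bearing ligand, was measured at an entry on a part of chromosome 1 that mm9 does not place (chr1_random). Wild-type libraries held 1.98, 1.55, 0.61 and 1.76 CPM and unrecombined libraries 3.59, 1.21, 1.22 and 1.56 CPM. Recombined libraries held 2.36, 2.42, 1.72 and 4.49 CPM. The groups overlapped, and recombined minus wild type was 0.90 ± 0.567 (adjusted p = 0.412), and 0.55 without recombined library 4.

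Scube2, a secreted partner of DISP1 in ligand release, rested on few reads. It stood at 0.27, 0.58, 0.70 and 1.18 CPM in wild type and at 0.94, 0.90, 0.93 and 0.61 CPM in unrecombined cells. The recombined libraries held 0.03, 0.40, 0 and 4.82 CPM, the last from 117 counts. Recombined minus wild type was 0.94 ± 1.22 (adjusted p = 0.73) with all libraries and -2.18 without recombined library 4, so 1 library decided the sign.

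Other genes of ligand production and release were read from a list of 12, of which 11 were found and 8 tested. Scube3, a relative of Scube2, was the 1 that rose against wild type, from 3.33 ± 1.52 to 14.9 ± 12.2 CPM (log2 2.16 ± 0.537, adjusted p = 0.0272). This call held in 17 of 26 alternatives. It was lost without wild-type library 2 or 4 or recombined library 3, without recombined 3 and 4 together (1.43, adjusted p = 0.222), by limma-voom, with only the groups compared and with the number series as covariate. Against unrecombined cells Scube3 rose (2.40 ± 0.542, adjusted p = 0.0182; held in 20 of 26, lost without unrecombined 1 or 3 or recombined 3, adjusted p up to 0.150). Scube1, another member of that family, fell from 7.19 ± 2.19 in unrecombined to 1.41 ± 1.01 CPM in recombined cells (-2.34 ± 0.532, adjusted p = 0.0189; held in 20 of 26, lost without unrecombined 1 or 3 or recombined 2, adjusted p up to 0.0814). In wild type Scube1 stood at 3.11 ± 0.359 CPM, and its difference from recombined cells was -1.14 ± 0.517 (adjusted p = 0.231). Of all loci, 4.17% rose against wild type, and 3.08% rose and 2.14% fell against unrecombined cells. None of the 8 listed genes passed between unrecombined and wild-type cells.

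Boc, which encodes a transmembrane co-receptor of the immunoglobulin and fibronectin type, was higher in every recombined library than in any other library. Wild-type libraries held 19.6, 10.5, 10.9 and 13.8 CPM. Unrecombined libraries held 16.8, 21.9, 13.8 and 24.9 CPM, and recombined libraries 31.2, 44.8, 30.1 and 64.5 CPM. Group means were 13.7 ± 4.19, 19.3 ± 4.97 and 42.6 ± 16.0 CPM (SD, n = 4). Boc rose 3.11-fold against wild type (log2 1.64 ± 0.304, edgeR adjusted p = 0.00558), and this call held in all 26 alternatives tested, with log2 differences of 1.37 to 1.86 and adjusted p up to 0.0494. Against unrecombined cells Boc rose 2.21-fold (1.14 ± 0.30, adjusted p = 0.0407). All 4 same-numbered pairs were higher, by 0.89, 1.03, 1.13 and 1.37 on the log2 scale. This second call held in 13 of 26 alternatives. It was lost when any 1 of wild-type 3 or 4, unrecombined 1, 2, 3 or 4, or recombined 2 or 4 was left out, with adjusted p from 0.0519 to 0.129, and was 0.98 with adjusted p = 0.193 without recombined 3 and 4 together. With only the 7 libraries low in salivary transcripts it was 1.32 (adjusted p = 0.171). The smaller difference of unrecombined minus wild type was 0.50 ± 0.298 (adjusted p = 1.0), with overlapping libraries.

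Genes of basal and myoepithelial cells, such as Krt14 and Trp63, were highest in recombined cells, as Boc was. Their list of 12 summed to 878 to 1087 CPM in wild-type, 512 to 1155 in unrecombined and 1905 to 7975 in recombined libraries. Of the 12, 11 rose against wild type and 12 against unrecombined cells, beside 4.17% and 3.08% of all loci. All 12 were detected, with Acta2 at 160 ± 29.0 CPM in wild type. The entry read for Tagln also carries Bace1, Pcsk7 and Rnf214, so part of its reads may belong to those genes. The largest sum and the highest Boc level were both in recombined library 4. Elsewhere the sum and Boc did not always go together. Recombined library 3 had a larger sum than recombined libraries 1 and 2, 4993 CPM, and the lowest Boc of its group, 30.1 CPM. Unrecombined libraries 1 and 3 had sums of 524 and 512 CPM, below every wild-type library. Their Boc levels, 16.8 and 13.8 CPM, lay inside the wild-type range. In sorted bulk cells a larger share of a cell type and more RNA per cell cannot be told apart, and the part of the basal cells in the Boc difference was not tested. Fibroblast genes ran the other way in recombined cells, with list sums of 218 to 609 CPM beside 1446 to 3504 in wild-type and 5267 to 7428 in unrecombined libraries.

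Cdon, which encodes the paralogous co-receptor, was the gene with the highest wild-type level among the 10 and was lowest in recombined cells. Its levels were 78.8, 107, 99.6 and 136 CPM in wild type and 85.0, 73.5, 114 and 89.8 CPM in unrecombined cells. Recombined libraries held 69.4, 44.4, 57.3 and 69.2 CPM, all below the other 8 libraries. Group means were 106 ± 23.9, 90.7 ± 17.3 and 60.1 ± 11.9 CPM. Cdon fell against wild type by 0.81 ± 0.205 on the log2 scale (0.569 of the wild-type level, adjusted p = 0.0289). The call was lost with only the groups compared (adjusted p = 0.0556) and without wild-type library 2, 3 or 4 or recombined library 2 or 3, with adjusted p from 0.0581 to 0.106, and without recombined 3 and 4 together (-0.90, adjusted p = 0.126). In the libraries low in salivary transcripts it was -0.70 (adjusted p = 0.160). Recombined minus unrecombined was -0.59 ± 0.204 (adjusted p = 0.123), negative in all 4 pairs, and no alternative brought it past the threshold. Unrecombined minus wild type was -0.22 ± 0.203 (adjusted p = 1.0).

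The hormone-sensing luminal list, which holds Esr1 and Prlr, was lowest in recombined cells, as Cdon was. The list summed to 3196 to 6193 CPM in wild-type, 2781 to 4598 in unrecombined and 672 to 1895 in recombined libraries. Of its 11 genes, 8 fell against wild type and 4 against unrecombined cells, beside 2.38% and 2.14% of all loci. All 11 were detected in these groups, and Esr1 went from 85.6 ± 25.3 to 28.2 ± 8.46 CPM. Within groups the list sum and Cdon did not always go together. Unrecombined library 2 had the highest sum of its group, 4598 CPM, and the lowest Cdon, 73.5 CPM. Recombined library 2 likewise had the highest sum of its group, 1895 CPM, and the lowest Cdon, 44.4 CPM. Both of these libraries held many salivary transcripts. In wild type, library 1 was lowest in the sum and in Cdon, at 3196 and 78.8 CPM. Over all 12 libraries Esr1, a gene of this list, was the locus most like Cdon among the 7131 searched (Pearson correlation of log2 CPM 0.93). The part of the hormone-sensing cells in the Cdon difference was not tested.

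Gas1, which encodes a co-receptor held to the membrane by a lipid anchor, varied most among the well-detected co-receptors. Wild-type libraries held 19.0, 8.05, 27.1 and 34.1 CPM. Unrecombined libraries held 33.4, 30.9, 29.6 and 81.5 CPM, and recombined libraries 21.3, 81.8, 71.0 and 206 CPM. Recombined library 1 lay inside the wild-type range and the other 3 recombined libraries above it. The difference from wild type, 2.11 ± 0.614 on the log2 scale, missed the threshold (adjusted p = 0.0601). It passed in 4 of 26 alternatives: by DESeq2 (adjusted p = 0.0163), with the replicate number as a block (0.0204), without recombined library 1 (0.0148), and in the libraries low in salivary transcripts (0.0353). The only recombined libraries in that low set are 3 and 4. The difference from wild type was 1.39 (adjusted p = 0.178) without recombined library 4 and 1.23 (adjusted p = 0.484) without recombined 3 and 4 together. Recombined minus unrecombined was 1.12 ± 0.596 (adjusted p = 0.352), higher in 3 of 4 pairs, and was 0.40 (adjusted p = 0.771) without recombined library 4 and 0.24 (adjusted p = 0.971) without recombined 3 and 4. Unrecombined minus wild type was 0.99 ± 0.596 (adjusted p = 1.0). A noncoding transcript on the other strand, Gm48488, shares 589 exon bases with Gas1, and its reads cannot be told apart without strand. The basal list, like Gas1, was highest in recombined library 4. Unrecombined library 4, the highest of its group for Gas1, had a fibroblast sum of 5370 CPM and a basal sum of 1116 CPM, both inside the ranges of its group. The part of either cell type in Gas1 was not tested.

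**Figure D3:**
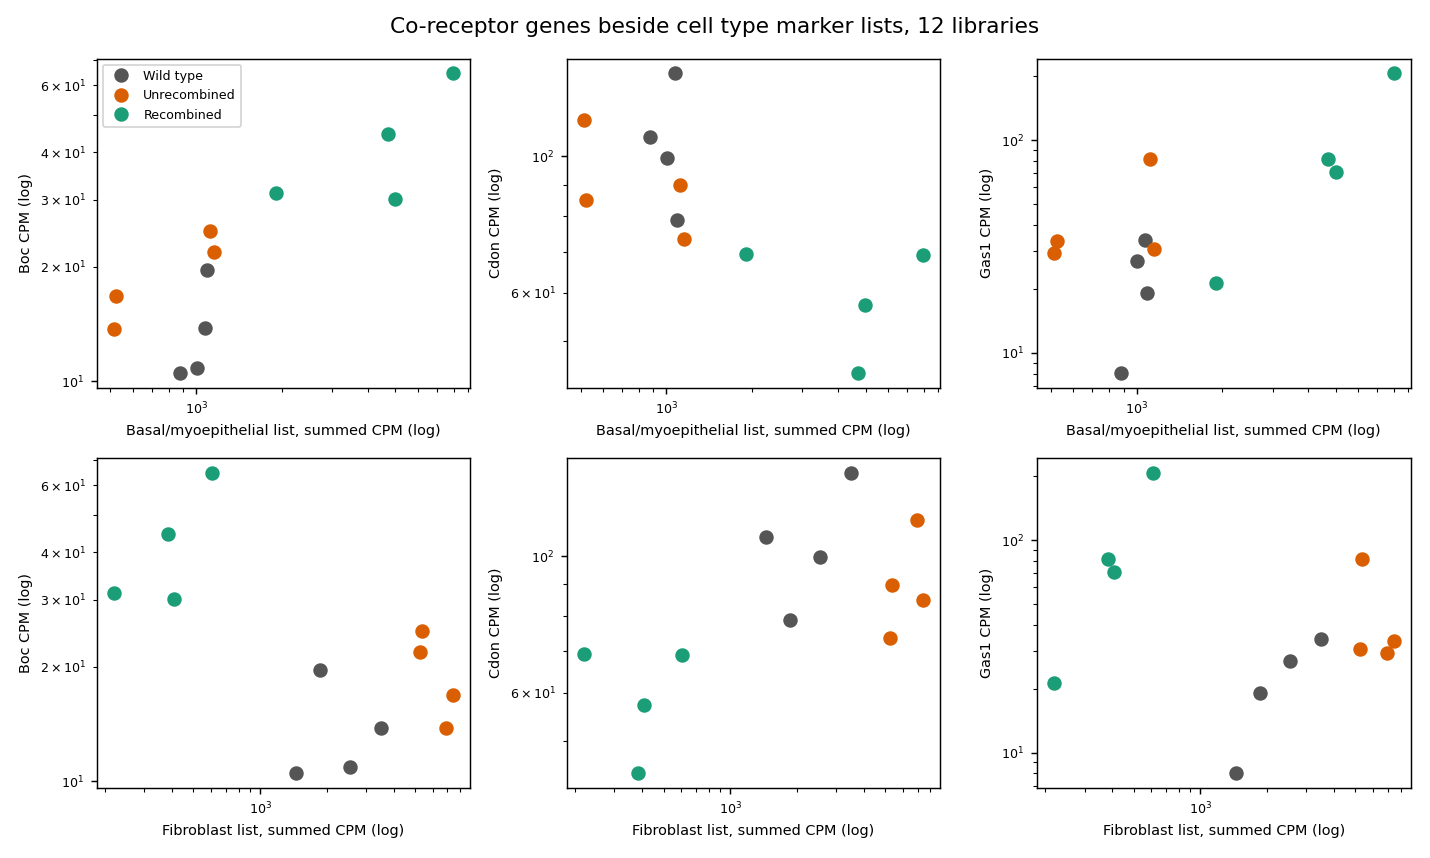
Boc, Cdon and Gas1 in each of the 12 libraries against the summed level of the basal/myoepithelial list (upper row) and of the fibroblast list (lower row), all in CPM on log axes. Recombined libraries have the highest basal sums (1905 to 7975) and the lowest fibroblast sums (218 to 609), and stand apart from the other libraries in both rows.

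Lrp2, which encodes the endocytic receptor megalin, was low and scattered. Wild-type libraries held 1.06, 9.75, 1.48 and 0.04 CPM. Unrecombined libraries held 2.21, 0.75, 1.98 and 5.23 CPM, and recombined libraries 0.99, 0.88, 4.47 and 3.38 CPM. The highest value was that of wild-type library 2, 1 of the libraries with many salivary transcripts. Recombined minus wild type was -0.35 ± 1.04 (adjusted p = 0.897) and 1.49 without that library. Cubn and Dab2, the partners of megalin in endocytosis, missed the threshold in the same comparison (2.38 ± 1.02, adjusted p = 0.205; 0.35 ± 0.293, adjusted p = 0.551).

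Per kilobase of exon the genes fell into high and low levels. In wild type Cdon stood at 13.7 ± 3.09 CPM per kb, Gas1 at 7.45 ± 3.78 and Boc at 3.08 ± 0.942, and the remaining means were 0.517 for Hhat, 0.405 for Dhh, 0.282 for Disp1, 0.185 for Lrp2 and 0.165 for Scube2. Neighbors in this order overlapped in their libraries, except Boc and Hhat. In unrecombined cells Gas1 came first at 14.8 ± 8.49, then Cdon at 11.8 ± 2.24, with overlapping libraries, and Boc at 4.34 ± 1.12 CPM per kb. In recombined cells Gas1 led at 32.1 ± 26.5, with Boc at 9.58 ± 3.60 and Cdon at 7.79 ± 1.54 CPM per kb, values whose libraries overlapped. The ratio of Boc to Cdon per kb was 0.431, 0.170, 0.189 and 0.175 in wild type and 0.343, 0.516, 0.208 and 0.480 in unrecombined libraries. It was 0.779, 1.75, 0.910 and 1.62 in recombined libraries, all above the other 8. The ratio follows from the levels already given and is a description.

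**Figure D4:**
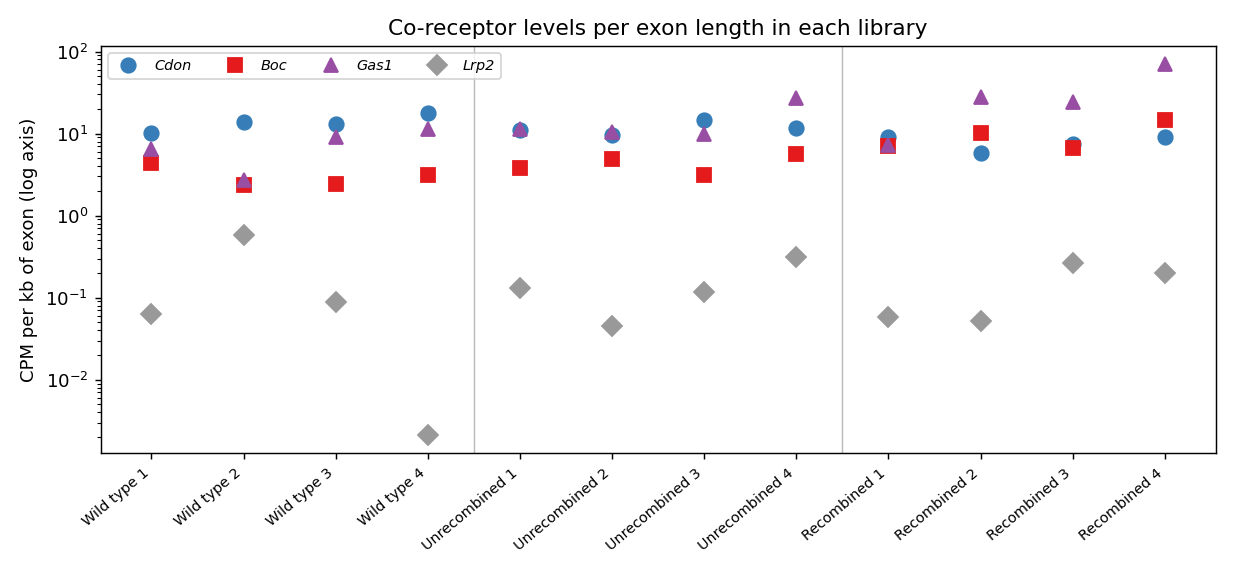
Co-receptor levels in each library in CPM per kilobase of exon (log axis), grouped by cell population. Cdon is above Boc in every wild-type and unrecombined library, and Boc passes Cdon in recombined libraries 2 and 4; Lrp2 is far below the rest in all 12.

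The 3 genes whose levels over the 12 libraries were most like those of a co-receptor were found among 7131 well-detected loci, by Pearson correlation of log2 CPM. For Boc they were Ndrg2, Vcan and Tspan2 (0.98, 0.97 and 0.97). For Cdon they were Esr1, Klhl13 and Clip4 (0.93, 0.89 and 0.88), and for Gas1 Dse, Zfp354c and Arhgap24 (0.93, 0.92 and 0.91). Coefficients for the low genes were smaller, with a best of 0.87 for Dhh (Nufip1), 0.88 for Hhat (Adss) and 0.80 for Disp1 (Nxn) and Lrp2 (Cpsf6). The libraries share their 3 groups, so these are descriptions.

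Of the ligand-binding genes beyond the 10, Hhip, Ptch1, Gpc4 and Gpc6 rose in recombined cells against wild type. Of the 15 genes of co-receptors and ligand binding, 14 were tested. Against wild type 5 rose and 1 fell, beside 4.17% of all loci higher and 2.38% lower, and 2 of these 6 are Boc and Cdon. The median log2 difference was 1.00, beside -0.02 over all loci. Hhip, a decoy that binds ligand, went from 3.07 ± 1.70 to 38.9 ± 19.7 CPM (log2 3.66 ± 0.533, adjusted p = 0.00120). Ptch1, the receptor and a classic Hedgehog target, went from 36.3 ± 1.54 to 434 ± 284 CPM (3.58 ± 0.443, adjusted p = 0.000427). Of the glypicans, proteoglycans that hold ligand, Gpc4 rose by 1.02 ± 0.224 (adjusted p = 0.0149; held in 22 of 26 alternatives, lost without wild-type 3 or 4, adjusted p up to 0.163). Gpc6 rose by 0.98 ± 0.252 (adjusted p = 0.0321; held in 16 of 26, lost without wild-type 1, 2 or 4 or recombined 2, 3 or 4, adjusted p up to 0.25). Gpc3, an inhibitor of the pathway, did not pass (-0.60 ± 0.364, adjusted p = 0.386). Against unrecombined cells 4 rose, Boc, Hhip, Ptch1 and Gpc4, and none of the 14 fell, beside 3.08% and 2.14% of all loci. Gpc6 was at 0.29 ± 0.249 there (adjusted p = 0.596). Of these calls those of Hhip and Gpc4 were lost without recombined 3 and 4 together (adjusted p = 0.0788 and 0.0980), and that of Ptch1 held in all 26 alternatives. None of the 14 passed between unrecombined and wild-type cells.

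Below the co-receptors, 3 of 22 signal transduction genes rose against wild type, Smo, Gli1 and Gli2, and 0 fell. The shares over all loci were 4.17% higher and 2.38% lower. The median of the 22 was 0.21. The log2 differences were 1.04 ± 0.217 for Smo, 2.57 ± 0.450 for the target and activator Gli1 and 2.97 ± 0.483 for Gli2 (adjusted p = 0.0115, 0.00398 and 0.00251). The entry read for Gli1 also carries the symbol Arhgap9, so part of its reads may belong to that gene. The calls of Smo and Gli1 held in 25 of 26 alternatives and were lost without recombined 3 and 4 together (adjusted p = 0.137 and 0.0592). The same 3 rose against unrecombined cells, by 0.93, 1.85 and 2.28, where 3.08% of all loci rose. There the calls of Smo and Gli1 each held in 20 of 26 alternatives. Smo was lost without unrecombined 1, 2 or 3 or recombined 4, and Gli1 without unrecombined 1, 2 or 4 or recombined 3 or 4; without recombined 3 and 4 together all 3 were lost (adjusted p = 0.220, 0.265 and 0.0917).

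Of 16 genes of heparan sulfate synthesis and turnover, chains on which Hedgehog ligands travel, 3 rose and 1 fell against wild type. Their median was 0.28, and 4.17% of all loci rose and 2.38% fell. Ext1, a polymerase of the chain, went from 114 ± 15.8 to 344 ± 134 CPM (1.59 ± 0.246, adjusted p = 0.00181) and was called in all 26 alternatives. Its partner Ext2 rose by 1.32 ± 0.366 (adjusted p = 0.0465), a call that held in 8 of 26 alternatives and in 2 of 12 leave-one-out fits, those without recombined 1 and without recombined 2. Without recombined 3 and 4 together the difference was 0.17 (adjusted p = 0.784). The sulfotransferase Hs6st1 rose by 0.81 ± 0.191 (adjusted p = 0.0212), held in 19 of 26 and lost without wild-type 1, 3 or 4 or recombined 3 or 4, with adjusted p up to 0.241. Hpse, the enzyme that cuts the chain, fell to 0.00916 CPM from 0.530 (adjusted p = 0.0198), a change that rests on very few reads. It held in 15 of the 23 alternatives that gave an adjusted p and was lost without wild-type 3, recombined 3 or recombined 4, by limma-voom and with the replicate block (0.0502), with adjusted p up to 0.174. Against unrecombined cells Ext1, Ext2 and Hs6st1 rose and Hpse fell, beside 3.08% of all loci higher and 2.14% lower. The call of Ext2 held in 10 of 26 alternatives, and without recombined 3 and 4 its difference was 0.23 (adjusted p = 0.795). The calls of Hs6st1 and Hpse were lost there too (adjusted p = 0.154 and 0.102). None of the 22 or 16 passed between unrecombined and wild-type cells.

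**Figure D5:**
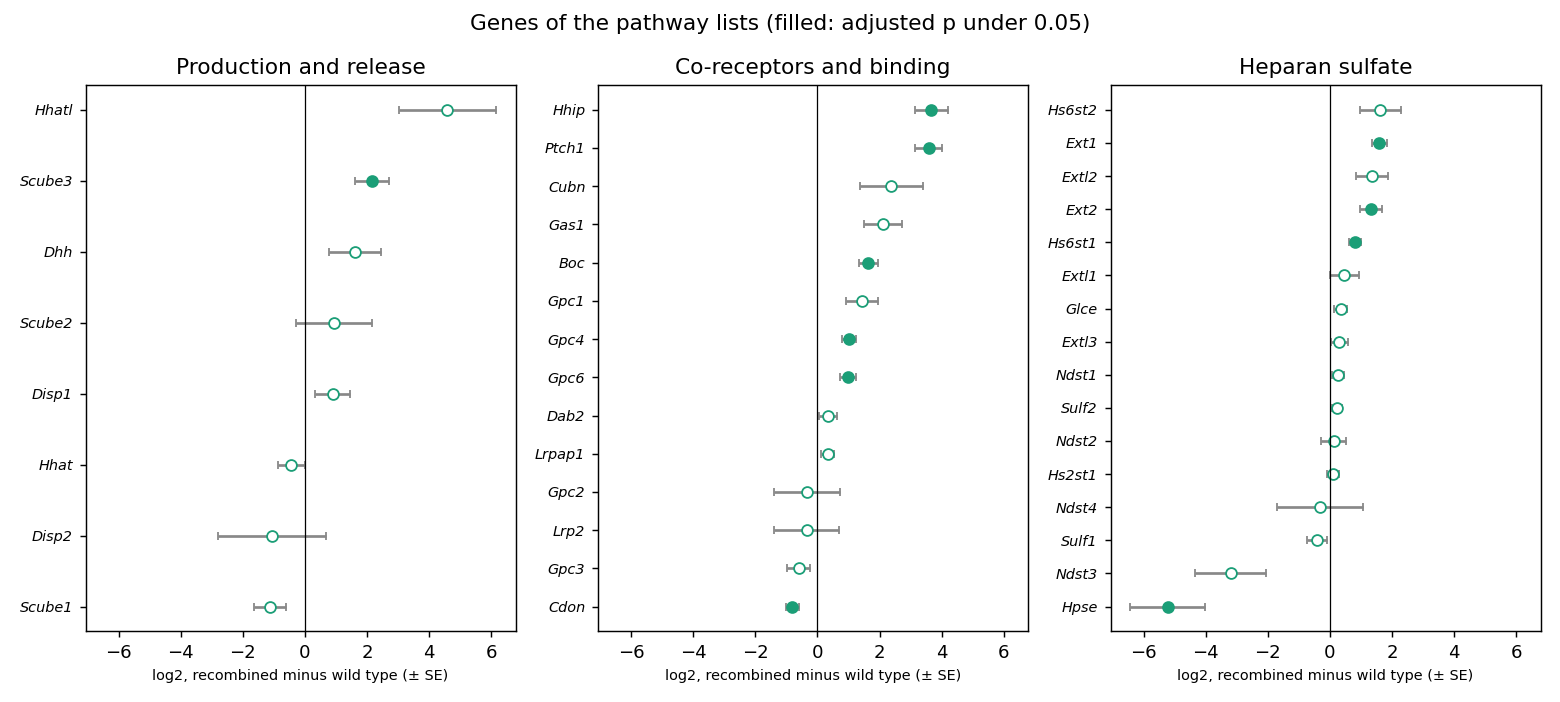
Log2 difference of recombined minus wild type, with standard errors, for the tested genes of 3 lists. Filled points have an adjusted p under 0.05: 1 of 8 genes of ligand production and release, 6 of 14 of co-receptors and ligand binding, and 4 of 16 of heparan sulfate synthesis.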

How the data were processed

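Reads were aligned with STAR and counted with HTSeq 0.3.1 on mm9, per the submitters' processing notes; options, strand and annotation are not given in the sources used here. The deposited values are raw read counts per locus. Entries naming several loci (16521 of 36635) were left out; they held at most 0.101% of a library's counts. Members and lists were chosen with earlier results of these data known. Loci that passed edgeR's expression filter (14039) were TMM-scaled and tested by edgeR 4.0.16 quasi-likelihood (R 4.3.3) with all 12 libraries in one fit, and p-values were adjusted by Benjamini-Hochberg over all loci. A locus was called at an adjusted p under 0.05. Shh and Ihh were under the filter and were tested by exact permutation. DESeq2 1.42.0, limma 3.58.1, other scalings and filters, a replicate block, library number series and leave-one-out fits were alternatives. Named genes were the members and the called genes of the pathway lists, with some uncalled list genes named for their role. Exon lengths and overlaps came from the GRCm38 annotation and no mm9 coordinates were mixed with them. The fit was tested on simulated data. Same-numbered recombined and unrecombined libraries deviated together (correlations 0.232, 0.404, 0.237 and 0.300, different numbers -0.234 to -0.0326), so differences within these pairs are also given. The main fit did not use the pairing, and only the alternatives with a replicate block did. Same-numbered wild-type libraries gave -0.0351, 0.194, 0.119 and 0.126 with recombined and 0.00184, 0.313, 0.150 and 0.158 with unrecombined libraries. Different numbers ran from -0.154 to 0.171 and from -0.248 to 0.335, so no pairing of wild type with either was clear. No replicate libraries matched within sampling noise. Some listed genes are not reported here and were left out of the list counts and sums.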

Additional observations from a re-analysis of the deposited data

Results flagged for a closer look

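In 7 of the 24 groups of 4 libraries checked (8 genes in 3 groups), 1 library stood apart from the other 3. For normally distributed values chance gives about 1 in 20. The check was made on CPM without a log scale, and the genes share their libraries, so that rate is only a guide. Hhat was 5.96 CPM in wild-type library 1, beside 4.23 to 4.49 in the others, and 6.59 in unrecombined library 1, beside 2.99 to 3.17. Disp1 was 3.59 CPM in unrecombined library 1, beside 1.21 to 1.56. Scube2 was 0.611 CPM in unrecombined library 4, below 0.904 to 0.942, and 4.82 in recombined library 4, above 0 to 0.403. Gas1 was 81.5 CPM in unrecombined library 4, beside 29.6 to 33.4. Lrp2 was 9.75 CPM in wild-type library 2, beside 0.0358 to 1.48. Unrecombined libraries 1 and 4 each appear for 2 genes.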

How the results depend on the processing

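Of the 8 tested genes, 2 were called against wild type; 1 was called with only the groups compared, with the replicate block and only the groups compared, and without recombined 3 and 4, and 1 to 3 with 1 library left out. Against unrecombined cells the count of 1 became 0 with upper-quartile scaling, only the groups compared, the library number series as covariate, without recombined 3 and 4, and in libraries low in salivary transcripts, and was 0 to 1 with 1 library left out. With the replicate block Boc against unrecombined cells was 1.12 (adjusted p = 0.0225) and Cdon -0.60 (0.0845); apart from Gas1 against wild type, the block in the fit of all libraries changed no other call of the 8.

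All sign changes were of genes that were not called. For Scube2 in recombined minus wild type, limma-voom gave -1.46, with library weights -1.65, the replicate block with only the groups compared -1.28, the replicate block -0.51, without recombined 3 and 4 -1.65, and leave-one-out -2.18 to 1.38. Against unrecombined cells the same settings gave -1.93, -1.98, -1.96, -1.34, -1.95 and -2.49 to 1.07, and the number series -0.085. Lrp2 in recombined minus wild type was 0.92 by limma-voom, 1.32 with weights, 0.76 with the block in the groups compared and 2.23 in libraries low in salivary transcripts, and -0.80 to 1.49 leave-one-out. In unrecombined minus wild type it was 1.19, 2.24, 0.73, 0.19 (block) and 2.08, and -0.90 to 1.57 leave-one-out. Against unrecombined cells it was 0.15 in libraries low in salivary transcripts and -0.53 to 0.55 leave-one-out. Hhat without recombined 3 and 4 was 0.073 against wild type and 0.33 against unrecombined cells, where leave-one-out gave -0.46 to 0.17. In unrecombined minus wild type, libraries low in salivary transcripts gave -0.40 for Dhh and -0.048 for Disp1, and leave-one-out -0.079 to 0.76 and -0.15 to 0.54. The causes were not tested.

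The 920 loci called against wild type became 1617 by DESeq2, 594 with only the groups compared, 609 with the block as well and 248 without recombined 3 and 4, and 502 to 1217 with 1 library left out. The 733 against unrecombined cells became 1349 by DESeq2 and 282 without recombined 3 and 4, and 449 to 1044 with 1 left out. The 0 between unrecombined and wild type became 78 by DESeq2, 25 by limma-voom, 74 with library weights, 8 with only the groups compared, 18 with the block as well and 1 with the block. Leaving out recombined 3 and 4, the libraries low in salivary transcripts, and the runs on 13 genes outside the 10 were chosen after seeing the data. Within the first and second library number series, with no test, Boc in recombined minus wild type was 1.51 and 1.67, Cdon -0.77 and -1.11, and Gas1 1.37 and 1.82. The first series holds wild-type libraries 1, 2 and 3 and libraries 1 and 2 of the other groups. In the second, recombined libraries 3 and 4 were set against wild-type library 4 alone, so its values rest on 1 wild-type library. Depth limits Shh, Ihh and Scube2.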
